A study of Sus scrofa with 6 samples.

Results

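Smooth muscle, pericyte and actin cytoskeleton genes were examined in pig renal medulla. They were chosen by gene name as 59 genes of contractile smooth muscle, pericytes and the cytoskeleton that most cells share. Of the 59 genes, 48 had a probe set annotated with their symbol alone, and these 48 genes were measured on 86 of the 23999 probe sets that are not controls. The other 11 genes had no such probe set and were not measured here: MYH11, LMOD1, NOTCH3, PDGFRA, CSPG4, ACTN4, PXN, ZYX, PFN1, TMSB4X and CAPZA1. Contractile and pericyte genes made up 13 of the measured genes and ubiquitous cytoskeleton genes the other 35. TUBA4A was added on a probe set that the study itself lists as changed between the same arrays, so its difference is a description and no independent evidence.

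The Sham group was 3 adult female Large White-Landrace crossbred pigs kept under general anaesthesia for 2.5 hours, with neck dissection and heparin according to the methods. The CPB group was 3 such pigs that had cardiopulmonary bypass, in which a pump and an oxygenator take over from heart and lungs, for 2.5 hours under the same anaesthesia. All 6 animals recovered, and the medulla was taken 24 hours after the intervention. Each animal's RNA was measured on 1 Affymetrix porcine array (n = 3 animals per group), and the animals are named Sham 1 to Sham 3 and CPB 1 to CPB 3. The values are linear RMA intensities, a brightness that can be compared between arrays for 1 probe set but not between genes.

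In smooth muscle, alpha-actin and myosin filaments slide past each other when calcium activates myosin light chain kinase, and calponin, caldesmon and transgelin bind the actin filaments. Pericytes are contractile cells on the outside of capillaries, and in the renal medulla they surround the descending vasa recta, the vessels that supply it with blood. The same filament proteins, in nonmuscle forms, build the cell cortex and the focal adhesions of every epithelium of the kidney and the microvilli of the brush border in the proximal tubule. Most of these genes therefore mark no single cell type. In whole tissue, fewer cells of a type and less RNA per cell cannot be told apart.

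The 6 arrays had median intensities from 94.26 to 96.5 after the normalisation, which makes them alike. Except for Sham 3, each array was most similar to an array of the other treatment group. Over all probe sets, Sham 2 was closest to CPB 1 (Spearman's rho = 0.988) and Sham 1 to CPB 2 (rho = 0.977), as a description of these 6 arrays. Sham 3 was closest to Sham 1 (rho = 0.972). The ratio of 3′ to 5′ intensity, a sign of RNA length, was between 3.78 and 5.79 on the actin control probe sets and between 1.63 and 3.02 on those of GAPDH, and for both it was lower in Sham 3 and CPB 3 than in the other 4 arrays. The methods accepted a ratio up to 3 for both genes. All 6 actin ratios here and the GAPDH ratio of CPB 2 were above it. The methods judged this in other software than RMA, so the ratios cannot be compared directly. Of the marker genes of the thick ascending limb and collecting duct, UMOD, SLC12A1 and AQP2 had no probe set named for them. The thick ascending limb and collecting duct were measured on 4 and 6 other markers.

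Between CPB and Sham medulla few of the measured genes differed by more than the spread between animals. At the threshold of the study, which asks for 1.6-fold or more and for p under 0.05 without adjustment, limma's moderated test called 1 of the 48 genes, against 0.304% of all probe sets (73 of 23999). This gene was TUBA4A, which was 1.77-fold higher in CPB, a direction in which 0.0875% of all probe sets were called. None of the 48 passed a Benjamini-Hochberg adjusted p of 0.05, as was the case for 0.0% of all probe sets, and 2 had an unadjusted p under 0.05, TUBA4A and CAPZB, against 1.4% of all probe sets. CAPZB was the only member without overlap between the groups, its 3 CPB values all lying above its 3 Sham values, and 5.27% of all probe sets had no overlap in either direction. The mean was lower in CPB for 37 genes and higher for 11, while 44.1% of all probe sets had a lower and 55.9% a higher mean. The differences (log2 intensity, CPB minus Sham) ran from -1.44 for RGS5 to 0.85 for VIL1 with a median of -0.20, beside a median of 0.027 over all probe sets. With 1 array left out this median was between -0.39 (without Sham 2) and -0.048 (without Sham 1). For 38 of the 48 genes the 95% confidence interval of the difference reached 1.6-fold in at least one direction, so a true difference of that size is not excluded for them by 3 animals per group. The number of arrays limits this precision, and an exact two-sided permutation test of 3 against 3 animals cannot give a p below 0.1.

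**Figure D1:**
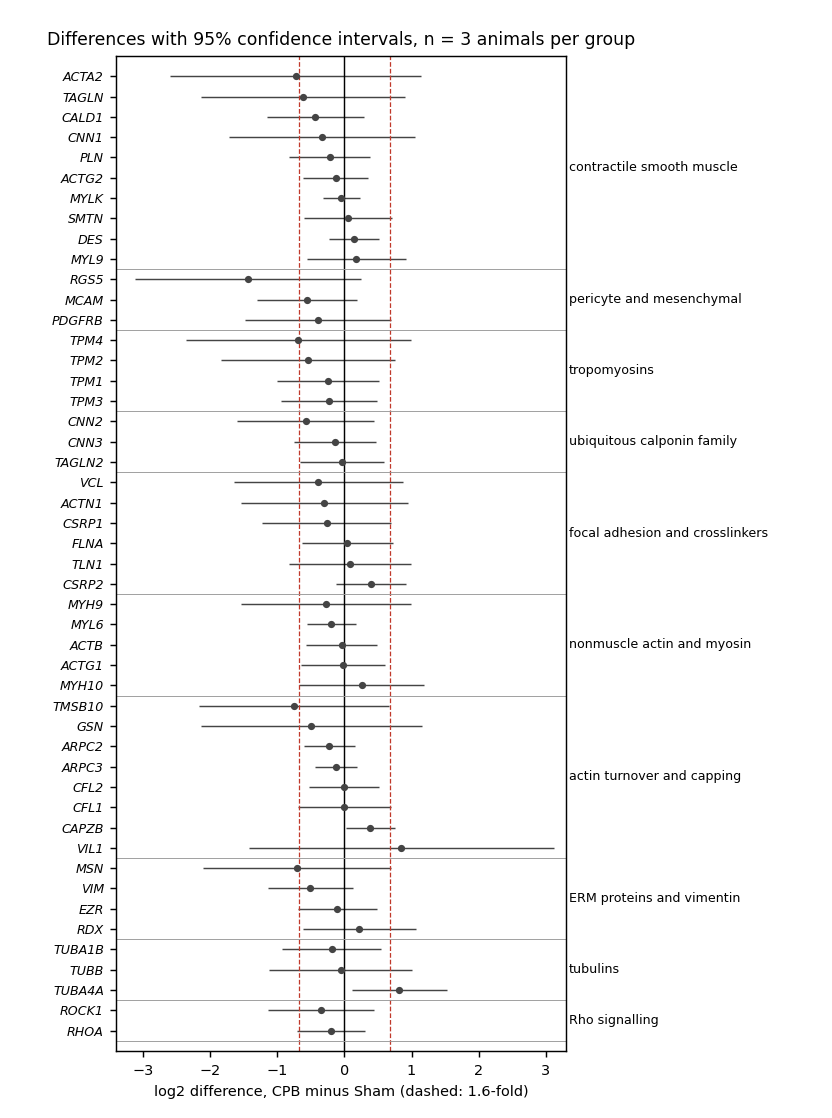
Difference in log2 intensity, CPB minus Sham, for the 48 measured genes (points) with 95% confidence intervals from limma (bars), n = 3 animals per group; the dashed lines mark 1.6-fold. The intervals of TUBA4A and CAPZB exclude 0 and those of the other genes include it.

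Contractile smooth muscle genes were represented by 10 of 12, with the CPB mean lower for 7 and higher for 3. Their median difference was -0.18 on the log2 scale, or -0.041 without Sham 1, and 0 were called. ACTA2, the smooth muscle alpha-actin, had intensities of 5436.6, 1130.8 and 2979.5 in Sham 1, 2 and 3 and of 972.0, 3960.1 and 1042.2 in CPB 1, 2 and 3. The highest and the lowest array differed 5.59-fold, and the groups overlapped: Sham 2 lay with CPB 1 and CPB 3, and CPB 2 lay between Sham 1 and Sham 3. The difference was therefore smaller than its error, at -0.73 on the log2 scale (SE 0.76, 95% CI -2.60 to 1.14), and it was -0.21 without Sham 1 and -1.34 without Sham 2. TAGLN, which encodes the actin-binding transgelin, was measured at 979.8, 336.3 and 677.4 in Sham and at 251.0, 915.3 and 266.2 in CPB, a difference of -0.62 (SE 0.62). The order of its arrays was close to that of ACTA2, with Sham 1 and CPB 2 on top. CALD1, which encodes caldesmon, had 2072.8, 1035.1 and 1841.6 in Sham and 1169.8, 1415.2 and 971.1 in CPB, with a difference of -0.43 (SE 0.30, limma unadjusted p = 0.196). CNN1, the smooth muscle calponin, had 124.1, 76.6 and 197.5 against 54.8, 206.0 and 83.3. Its lowest value was in CPB 1 and its highest in CPB 2, so that the CPB group alone covered the whole range.

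The other 6 contractile genes varied less between animals on their brightest probe sets and did not share this order of arrays. MYLK, the myosin light chain kinase, was between 121.7 and 142.7 in all 6 animals, the narrowest range of the 48 genes (1.17-fold), with a difference of -0.046 (SE 0.11). DES, which encodes the intermediate filament desmin, was between 191.8 and 218.1 in Sham and between 194.6 and 268.5 in CPB. SMTN, which encodes smoothelin, was between 358.6 and 449.1 in Sham and between 291.1 and 579.9 in CPB. The groups overlapped in each of these genes. MYL9, the regulatory light chain of smooth muscle myosin, had 730.9, 456.6 and 370.3 in Sham and 431.4, 696.9 and 596.2 in CPB, a difference of 0.18 (SE 0.30). PLN, which encodes phospholamban, the regulator of the calcium pump of the sarcoplasmic reticulum, ranged from 154.1 to 262.0 in Sham and from 132.1 to 180.6 in CPB. For ACTG2, the gamma-actin of visceral smooth muscle, the 2 probe sets varied to a different extent. The brighter lay between 295.8 and 434.3 in all animals, whereas the other had 140.3, 61.8 and 461.2 in Sham and 41.0, 995.0 and 47.9 in CPB, a 24.3-fold range with CPB 2 and Sham 3 far above the rest. On neither was there a difference beyond its error (-0.13, SE 0.20, and -0.34, SE 1.40).

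**Figure D2:**
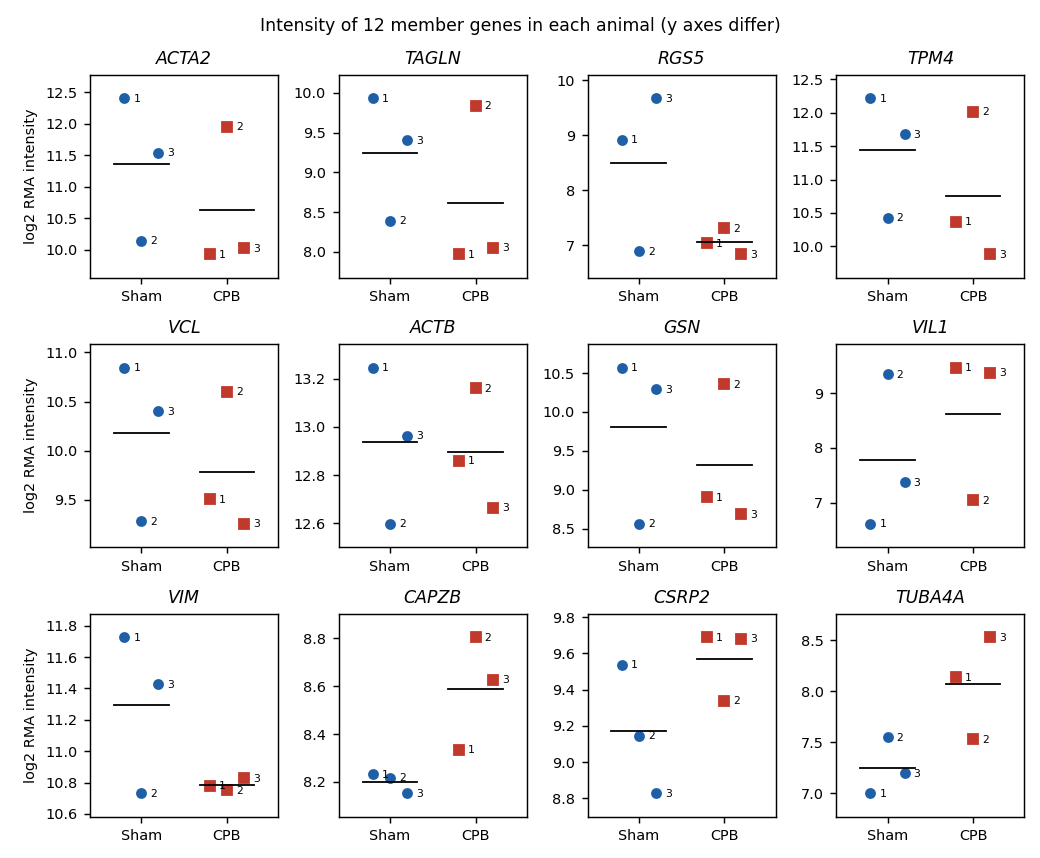
RMA intensity on a log2 scale for the brightest probe sets of 12 of the genes, with 1 point per animal (circles Sham, squares CPB, numbered by animal) and the group mean as a line; the y axes differ. ACTA2, TAGLN, TPM4, VCL, ACTB and GSN were high in Sham 1, Sham 3 and CPB 2, VIL1 was low in these 3, and CAPZB was higher in every CPB animal than in every Sham animal.

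Pericyte and mesenchymal genes were represented by 3 of 6, all with a lower mean in CPB, and 0 were called. Their median difference was -0.56, or -0.26 without Sham 1. With 3 genes and all arrays this median was the value of MCAM, whose brightest probe set was at percentile 33.3 of mean intensity. RGS5, a regulator of G protein signalling and a marker of pericytes, had the largest difference in size of the 48 genes. Its intensities were 486.0, 119.1 and 821.1 in Sham 1, 2 and 3 and 131.3, 158.6 and 114.3 in CPB 1, 2 and 3, so that Sham 1 and Sham 3 were above all CPB animals, while Sham 2 was below CPB 1 and CPB 2. The Sham mean was 475 ± 351 and the CPB mean 135 ± 22.4 (SD, n = 3 each). The difference was -1.44 on the log2 scale (SE 0.69, 95% CI -3.13 to 0.25) with an unadjusted limma p of 0.0823. Without Sham 2 it was -2.24 (SE 0.28) and past the study's threshold, and without Sham 3 it was -0.85 (SE 0.62), so that single Sham animals set its size. MCAM, an adhesion molecule of pericytes and endothelium also known as CD146, had 99.4, 48.8 and 58.4 in Sham and 38.5, 57.8 and 39.9 in CPB, a difference of -0.56 (SE 0.31) with overlap between the groups through Sham 2 and CPB 2. PDGFRB, the receptor by which platelet-derived growth factor recruits pericytes, had 1423.8, 756.4 and 915.8 in Sham and 959.5, 1122.6 and 402.1 in CPB, a difference of -0.40 (SE 0.44). Its dimmer probe set had a difference of 0.14 (SE 0.15), with the sign reversed.

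Tropomyosins lie along the groove of the actin filament and control the access of myosin to it, and all 4 genes of the family were measured. On their brightest probe sets all 4 had a lower mean in CPB, none was called, and for all 4 the highest arrays were Sham 1, Sham 3 and CPB 2. Their median difference was -0.39, and with 1 array left out it was between -0.76 (without CPB 2) and -0.19 (without CPB 3). TPM4 had the widest range, 5.06-fold, with 4775.5, 1381.3 and 3283.4 in Sham and 1322.3, 4137.8 and 943.7 in CPB and a difference of -0.69 (SE 0.69). TPM2, the beta-tropomyosin, had 796.6, 334.9 and 580.4 against 269.3, 765.9 and 242.3, a difference of -0.54 (SE 0.53). In both genes the CPB animals 1 and 3 were the lowest of all and CPB 2 the second highest. TPM1 had 2549.3, 1268.8 and 2054.3 against 1402.4, 2131.2 and 1342.7, and TPM3 had 2354.6, 1501.6 and 2902.0 against 1633.2, 2412.7 and 1600.8, with differences of -0.24 (SE 0.31) and -0.23 (SE 0.29). The lowest animal was Sham 2 in both, and all CPB values lay inside the Sham range.

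The calponin family members outside smooth muscle had the same 3 arrays on top. CNN2 had 148.1, 68.4 and 162.9 in Sham and 68, 120.2 and 60.7 in CPB, a difference of -0.58 (SE 0.42). CNN3 had 3952.6, 2131.2 and 3707.4 against 2818.5, 2969.5 and 2788.6, where the CPB animals lay close together and inside the Sham range. TAGLN2, the ubiquitous relative of transgelin, had 1002.3, 657.7 and 1000.5 against 738.4, 1139.8 and 724.2, with a difference of -0.038 (SE 0.26). None of these 3 was called.

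Focal adhesion and crosslinking genes were measured for 6 of 9, with 3 means higher and 3 lower in CPB (median difference -0.11) and 0 called. VCL, which encodes vinculin, the link from integrin complexes to actin, had 1840.6, 621.8 and 1352.2 in Sham and 727.6, 1552.5 and 611.3 in CPB, a difference of -0.39 (SE 0.52). ACTN1, the crosslinker alpha-actinin, had 940.2, 398.6 and 502.8 against 483.4, 827.7 and 252.4, a difference of -0.30 (SE 0.51). Its dimmer probe sets had differences of 0.045 (SE 0.34) and -0.00078 (SE 0.13). CSRP1, a LIM protein of smooth muscle and other cells, had 400.0, 253.9 and 379.3 against 256.8, 485.1 and 178.9. On the brightest probe sets of all 3 genes CPB 3 was the lowest animal and CPB 2 was among the 2 highest. FLNA, the crosslinker filamin A, was between 259.8 and 355.1 in Sham and 245.7 and 453.6 in CPB, and TLN1, which encodes the integrin activator talin, between 411.6 and 753.5 in Sham and 369.9 and 838.0 in CPB. CSRP2, the second LIM protein of this family, followed another order, with 742.8, 566.5 and 454.5 in Sham and 825.9, 647.9 and 821.2 in CPB. CPB 1 and CPB 3 were above all Sham animals, while CPB 2 was below Sham 1. Its difference was 0.40 (SE 0.21, 95% CI -0.12 to 0.92) with an unadjusted limma p of 0.110.

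The nonmuscle actins and myosins were measured for 5 of 5, with 1 mean higher and 4 lower in CPB (median difference -0.041), and 0 were called. ACTB, the cytoplasmic beta-actin often taken as a reference gene, had 9721.3, 6198.9 and 7987.4 in Sham and 7430.2, 9165.3 and 6490.9 in CPB, a 1.57-fold range with a difference of -0.041 (SE 0.22, 95% CI -0.57 to 0.48). ACTG1, the cytoplasmic gamma-actin, ranged from 3782.0 to 6751.4 in Sham and from 4629.1 to 6432.1 in CPB, with a difference of -0.019 (SE 0.26). On the brightest probe sets of both actins Sham 1 was the highest and Sham 2 the lowest animal, and all CPB values lay between these. The second ACTB probe set, at percentile 90.6 of mean intensity, had another order. It had 472.6, 638.6 and 550.0 in Sham and 548.7, 373.4 and 729.0 in CPB, a difference of -0.051 (SE 0.27). MYH9, the heavy chain of nonmuscle myosin IIA, varied more, with 3128.7, 1248.8 and 2279.3 against 1538.9, 3257.7 and 1008.9 and a difference of -0.27 (SE 0.52). MYL6, the essential light chain of smooth muscle and nonmuscle myosin, had 4043.5, 3544.4 and 4029.3 against 3162.3, 4010.6 and 3029.2, a difference of -0.20 (SE 0.15). MYH10, the heavy chain of nonmuscle myosin IIB, had 12, 20.8 and 18.9 against 24.7, 11.8 and 27.6 and was thus below the lower quartile of all probe sets (37.8) in every animal. It was lowest in Sham 1 and CPB 2, the animals in which MYH9 was highest.

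Genes of actin turnover, severing and capping were measured for 8 of 11, with 2 means higher and 6 lower in CPB (median difference -0.066) and 0 at the study's threshold. CAPZB, the beta subunit of the capping protein that blocks the fast-growing end of the filament, had 300.8, 297.8 and 284.6 in Sham and 322.9, 447.0 and 395.2 in CPB. The 3 Sham animals lay within a narrow band, with a mean of 294 ± 8.63, and every CPB animal was above it, with a mean of 388 ± 62.3 (SD, n = 3 each). It was 1.31-fold higher in CPB, which is under the fold minimum of the study's threshold. The difference was 0.39 (SE 0.15, 95% CI 0.026 to 0.75) with an unadjusted limma p of 0.0393 and a Benjamini-Hochberg adjusted p of 0.995. The unadjusted limma p was over 0.05 without each array but CPB 1 (0.0714 to 0.108), with an intensity trend (0.0724) and with array weights, where the difference was 0.20 (SE 0.13). On its other probe sets the groups overlapped, with differences of 0.22 (SE 0.16) and 0.072 (SE 0.14). A higher mean without overlap was found for 3.38% of all probe sets.

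VIL1, which encodes villin, the bundling protein of brush border microvilli, was ordered the other way round from most of the members and had the widest range of the main probe sets, 7.24-fold. It had 97.9, 651.9 and 165.8 in Sham and 708.7, 131.7 and 663.0 in CPB. Sham 2, CPB 1 and CPB 3 lay at 651.9 or above and the other 3 animals at 165.8 or below, so that the difference of 0.85 (SE 0.93, 95% CI -1.42 to 3.12) was within its error. GSN, which encodes the severing protein gelsolin, had the opposite order, with 1522.3, 378.0 and 1251.4 against 479.4, 1312.0 and 410.7 and a difference of -0.49 (SE 0.67). Its dimmer probe set had a difference of 0.077 (SE 0.18), with the sign reversed. TMSB10, a thymosin that binds actin monomers, had 4742.9, 2313.7 and 5143.5 against 1593.1, 5234.6 and 1418.6, a difference of -0.75 (SE 0.58). Here CPB 2 was the highest animal of all and the other CPB animals the lowest. ARPC2, a subunit of the Arp2/3 complex that nucleates branches, had 33.7, 32.1 and 28.3 against 25.8, 23.3 and 31.6, again below the lower quartile of all probe sets. Its partner ARPC3 and the severing cofilins CFL1 and CFL2 had differences between -0.13 and -0.0014, each with a 95% confidence interval that included 0.

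Of the ERM proteins, which tie the cortex to the membrane, MSN (moesin) had 1677.4, 581.9 and 1098.6 in Sham and 595.4, 1217.1 and 340.2 in CPB, a difference of -0.71 (SE 0.57). RDX (radixin) had 517.8, 815.7 and 500.1 against 819.2, 435.5 and 930.6, with Sham 2, CPB 1 and CPB 3 on top as for VIL1 and a difference of 0.22 (SE 0.35). EZR (ezrin) ranged from 2111.0 to 3814.8 in Sham and from 2321.1 to 3050.7 in CPB. The groups overlapped in all 3 genes. VIM, which encodes vimentin, the intermediate filament of mesenchymal cells, had 3391.3, 1700.0 and 2756.3 in Sham against 1759.6, 1724.6 and 1817.8 in CPB. All 3 CPB animals were near Sham 2, the lowest, and Sham 1 and Sham 3 were well above, as for RGS5. The Sham mean was 2616 ± 854 and the CPB mean 1767 ± 47.1 (SD, n = 3 each). The difference was -0.51 (SE 0.26, 95% CI -1.14 to 0.12) with an unadjusted limma p of 0.0966. It was -0.79 (SE 0.13) and past the study's threshold without Sham 2 and -0.29 (SE 0.23) without Sham 1.

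TUBA4A, an alpha-tubulin of microtubules, had intensities of 127.9, 187.3 and 146.4 in Sham and of 282.4, 184.6 and 370.4 in CPB. CPB 1 and CPB 3 were above all Sham animals, while CPB 2 was just below Sham 2, so that the groups overlapped by 1 animal. The mean was 154 ± 30.4 for Sham and 279 ± 92.9 for CPB (SD, n = 3 each). The difference was 0.82 (SE 0.29, 95% CI 0.12 to 1.52) with an unadjusted limma p of 0.0289 and a Benjamini-Hochberg adjusted p of 0.995. The call at the study's threshold was lost without Sham 1, Sham 3, CPB 1 or CPB 3 (unadjusted limma p between 0.0761 and 0.0888) and was kept without Sham 2 or CPB 2. The other tubulins had slightly lower means in CPB, within their error. TUBB, a beta-tubulin, had 682.3, 356.3 and 1008.1 against 461.1, 897.4 and 524.1, a difference of -0.059 (SE 0.44), and TUBA1B, a ubiquitous alpha-tubulin, had 2126.4, 1341.2 and 3014.3 against 1750.9, 2035.8 and 1623.1, a difference of -0.19 (SE 0.30). In both, Sham 3 was the highest animal and Sham 2 the lowest.

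RHOA, the GTPase that sets actomyosin tension, had 1233.8, 840.4 and 1046.6 in Sham and 809.1, 1119.3 and 798.1 in CPB, a difference of -0.20 (SE 0.21). ROCK1, the kinase it activates, had 217.2, 102.5 and 186.2 against 158.0, 124.8 and 100.5, a difference of -0.36 (SE 0.32). Both had overlapping groups and neither was called.

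The measured genes varied between animals of one group more than most probe sets did. The SD within groups was 0.43 on the log2 scale in the median over the 48 genes, beside 0.22 over all probe sets, and the fold between the highest and the lowest array was 2.14 in the median beside 1.48. Over the brightest probe sets of all 6766 named genes these medians were 0.24 and 1.56. Much of this spread had one order. Sham 1, Sham 3 and CPB 2 were the 3 highest arrays for 29 of the 48 genes (60.4%), beside 16.4% of all probe sets, and the reverse, with Sham 2, CPB 1 and CPB 3 on top, was found for 5 genes (MYLK, MYH10, VIL1, RDX and TUBA4A), beside 21.4% of all probe sets. The order was found for 23 of the 35 ubiquitous cytoskeleton genes (65.7%) and for 6 of the 13 contractile and pericyte genes (46.2%). Sham 1 was the highest array for 23 genes and Sham 2 for 0, while CPB 3 was the lowest for 19 and Sham 2 for 12. The shares over all probe sets are not limited to the brightest probe set of each gene, as those of the 48 genes are. These counts describe 6 arrays and were not tested.

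**Figure D3:**
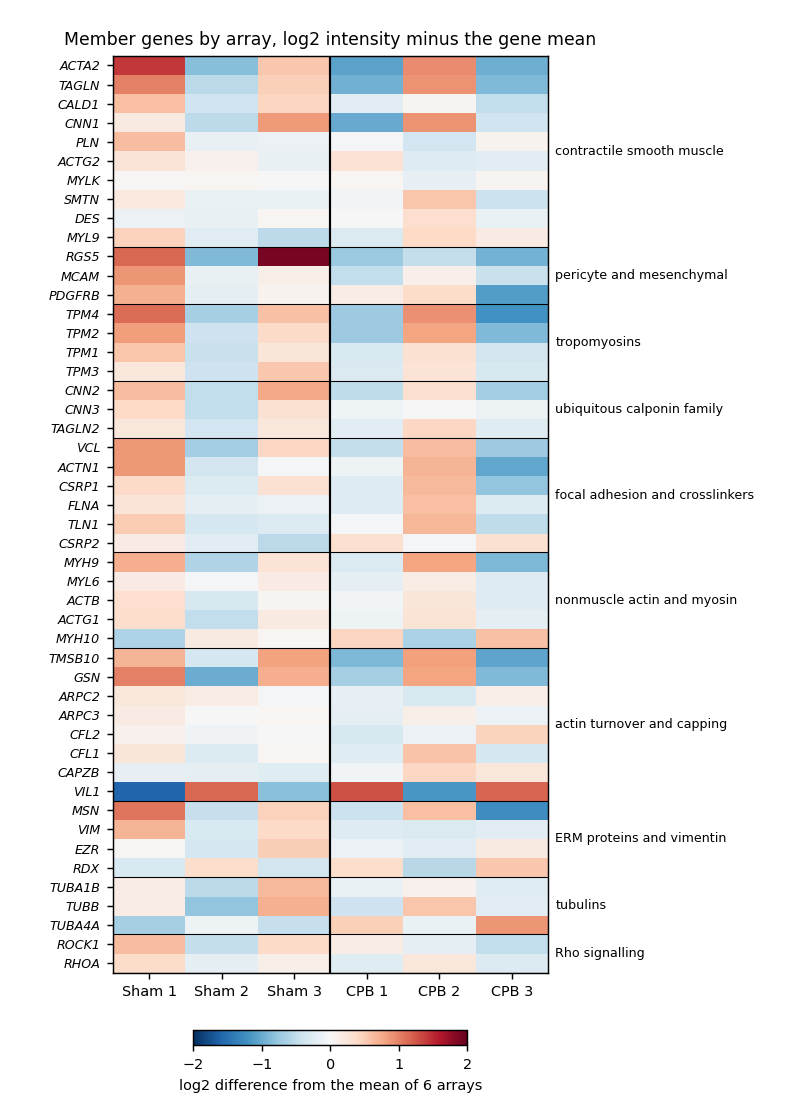
Log2 intensity minus the mean of the gene over 6 arrays, for the 48 measured genes in rows grouped by role and the arrays in columns (red above and blue below the mean). Most rows were red in Sham 1, Sham 3 and CPB 2 and blue in Sham 2, CPB 1 and CPB 3, with VIL1 and RDX in the reverse order.

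Mean marker values of urothelium, endothelium, collecting duct and leukocytes moved along with this order, though not all of their single markers did. The mean values of the proximal tubule markers moved against it. Those of some other cell types did neither. The mean gene-centred log2 intensity of the 10 contractile genes was 0.46, -0.28 and 0.14 in Sham 1, 2 and 3 and -0.33, 0.33 and -0.32 in CPB 1, 2 and 3. That of the tropomyosins was 0.69, -0.48 and 0.44 in Sham and -0.51, 0.57 and -0.70 in CPB. The pericyte genes departed from it in CPB 2, with 0.91, -0.41 and 0.70 in Sham and -0.36, -0.0022 and -0.83 in CPB. Over 13 proximal tubule markers the mean was -2.32, 1.35 and -0.22 in Sham and 1.34, -1.63 and 1.48 in CPB, and all 13 had Sham 2, CPB 1 and CPB 3 on top, as VIL1 and RDX had. Their summed intensity was 3702.5, 38793.1 and 13893.6 in Sham 1, 2 and 3 and 39768.8, 5295.8 and 43558.4 in CPB 1, 2 and 3. The ranges of the groups were thus alike, but their arrays were not evenly split, with CPB 1, CPB 3 and Sham 2 high. Each of the 13 markers averaged more in CPB than in Sham, the median of these log2 differences being 0.82. For 0 of them was the unadjusted limma p under 0.05. Of 15 urothelium markers 7 were measured, with 1405.4 to 5389.9 in Sham and 1486.3 to 5669.3 in CPB, and 5 of the 7 had Sham 1, Sham 3 and CPB 2 on top. The 12 endothelial markers measured summed to between 2263.2 and 4085.3 in Sham and between 1650.3 and 3414.7 in CPB, with that order in 7. The 11 skeletal muscle markers stayed between 359.5 and 456.0 in Sham and 376.4 and 492.5 in CPB, with that order in 2. The order was found in 1 of 4 thick ascending limb, 1 of 10 fibroblast, 3 of 9 leukocyte and 3 of 6 collecting duct markers, beside 16.4% of all probe sets. The leukocyte means followed it, with 0.31, -0.17 and 0.13 in Sham and -0.16, 0.23 and -0.34 in CPB. So did the collecting duct means, with 0.12, -0.15 and 0.10 in Sham and -0.29, 0.68 and -0.46 in CPB. The reverse order was found in 2 of the 6 collecting duct markers, SCNN1A and SCNN1B. It was also found in 1 of the 12 endothelial, 0 of the 9 leukocyte and 0 of the 7 urothelium markers, beside 21.4% of all probe sets. The thick ascending limb markers had means of 0.66, 0.0038 and -0.54 in Sham and -0.0090, 0.23 and -0.33 in CPB. RMA gives no values of 0, so no marker was at 0. With the mean of the proximal tubule markers as a covariate the difference of ACTA2 was -0.23 (SE 0.17), and with that of the urothelium markers it was -0.18 (SE 0.48), while RGS5 stood at -1.18 (SE 0.60) and -0.94 (SE 0.42) and CAPZB at 0.43 (SE 0.14) and 0.42 (SE 0.16). TUBA4A stood at 0.66 (SE 0.16) and 0.63 (SE 0.20), under the fold minimum, with unadjusted limma p-values of 0.0065 and 0.0252, so that 0 members met the study's threshold under either covariate. The part of tissue composition in these differences was not tested.

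**Figure D4:**
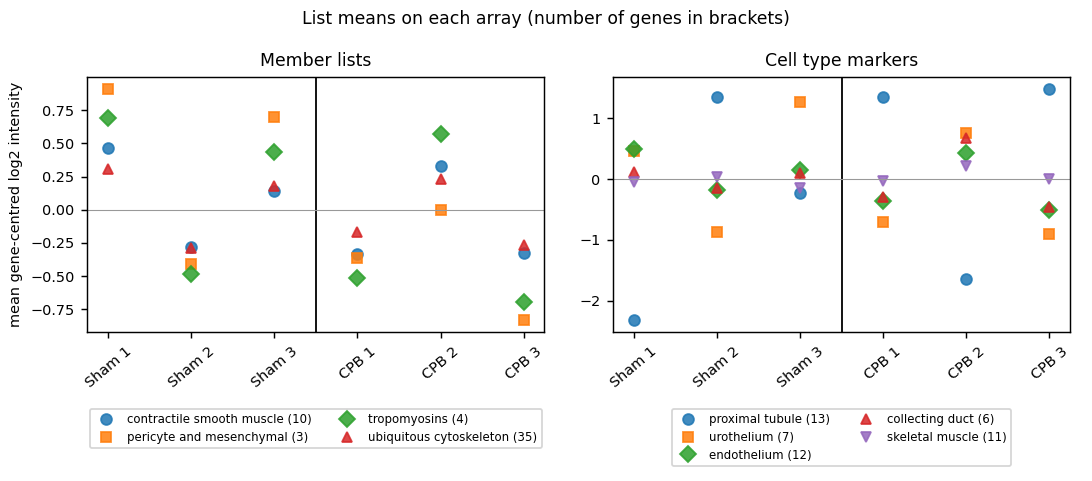
Mean gene-centred log2 intensity of member lists (left) and of cell type markers (right) on each array, with the number of genes in brackets. The tropomyosins, contractile genes and ubiquitous cytoskeleton genes were above 0 in Sham 1, Sham 3 and CPB 2, and the proximal tubule markers were above 0 in Sham 2, CPB 1 and CPB 3.

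The arrays Sham 2 and CPB 2 stood apart from the others of their groups in this order, and the counts depended on them. Without Sham 2, 6 genes met the study's threshold (CALD1, CNN2, RGS5, ROCK1 and VIM lower and TUBA4A higher in CPB), beside 2.92% of all probe sets. Without CPB 2, 4 genes did (TAGLN, TMSB10 and TPM2 lower and TUBA4A higher), beside 2.89%. Without both arrays 23 genes did, 19 lower and 4 higher, beside 12.8% of all probe sets, and the difference of ACTA2 was then -2.0 (SE 0.32). Its Benjamini-Hochberg adjusted p from limma was 0.0594 in that fit, in which 6 of the 48 genes, RGS5 among them (adjusted p of 0.0421), and 719 of all probe sets passed 0.05. The pair was chosen because it stood apart in earlier results of these data, which fixes the direction of every gene with this order, and 2 animals were left in each group, so no difference between treatments is read from these counts.

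Genes with several probe sets gave a check within the same RNA. Of the 48 genes, 25 had more than 1 probe set, with 38 beyond the brightest one, of which 12 had a difference of the opposite sign and 0 were called. TPM4, TPM2 and TPM3 had a further probe set that followed the brightest one closely, with differences of -0.65 (SE 0.69), -0.54 (SE 0.55) and -0.18 (SE 0.33). The remaining tropomyosin probe sets, all dimmer, did not share 1 sign. TPM2 had 0.12 (SE 0.14) and -0.28 (SE 0.31), TPM1 had 0.069 (SE 0.15) and -0.50 (SE 0.34), and TPM3 had -0.072 (SE 0.11). For other genes the animals were ordered differently by a dimmer probe set. For VCL a dim probe set had 21.4, 25.5 and 21.3 in Sham and 23.0, 25.5 and 26.0 in CPB. A further VCL probe set, with a difference of -0.44 (SE 0.35), kept the sign of the brightest one. The dimmer probe set of MSN had 176.6, 95.6 and 280.0 against 90.9, 94.8 and 120.3, where CPB 2 was no longer high. Sham 1, Sham 3 and CPB 2 were the 3 highest arrays for 8 of the 38, beside 16.4% of all probe sets and 29 of the 48 brightest ones. This order was thus less common on the other probe sets of the members than on the brightest. The value relative to the brightest probe set of the same gene was largest in CPB 3 for 18 of the 38 and in Sham 2 for 10. Beside this stand the ratios of 3′ to 5′ intensity given above, with Sham 3 and CPB 3 lowest, and the part of RNA length or of dim signal in it was not tested. Actins, tropomyosins and tubulins have near-identical relatives, and how far their probes take up signal from each other was not tested.

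Other genes of the same pathways were described from lists of smooth muscle and serum response factor genes and of actin cytoskeleton genes. Of the smooth muscle list 18 of 36 were measured, with 5 means higher and 13 lower in CPB, a median difference of -0.14 and 0 at the study's threshold. Of the actin cytoskeleton list 27 of 47 were measured, with 7 higher, 20 lower, a median of -0.15 and 0 at the threshold. Sham 1, Sham 3 and CPB 2 were on top in 9 of the 18 (50.0%) and 12 of the 27 (44.4%). The smallest p in the smooth muscle list belonged to KCNMA1, the calcium-activated potassium channel, with 46.7, 54.2 and 47.3 in Sham and 56.7, 53.1 and 57.8 in CPB (difference 0.18, SE 0.11), and the next to PPP1CB, the catalytic subunit of myosin phosphatase, with 1100.9, 743.7 and 1321.4 against 829.0, 783.0 and 888.6 (difference -0.30, SE 0.22). In the other list they belonged to STMN1, the microtubule destabiliser stathmin, with 547.8, 328.8 and 364.3 against 313.6, 240.3 and 322.0 (difference -0.48, SE 0.23), and to CORO1C, an actin-binding coronin, with 63.1, 53.1 and 94.9 against 44.7, 44.0 and 57.9 (difference -0.49, SE 0.25). STMN1 was lower in every CPB animal than in every Sham animal, which held for 1.89% of all probe sets, and in the other 3 genes the groups overlapped. The only other gene of the lists without overlap on its brightest probe set was ARPC5, a further Arp2/3 subunit named here after its values were seen, with 589.9, 483.8 and 527.1 in Sham and 444.1, 456.5 and 460.7 in CPB (difference -0.23, SE 0.12). None of the 5 had an unadjusted limma p under 0.05.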

How the data were processed

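The authors scanned 6 Affymetrix porcine arrays, 1 for each animal, and used RMA in ArrayStar, which corrects the background, applies quantile normalization and summarises by median polish, and deposited intensity values. Their linear scale was read from the size of the values. The genome build is not given in the sources used here. Here log2 of the deposited intensities was taken, 124 control probe sets were left out and CPB was compared with Sham on 23999 probe sets by limma 3.58.1 (lmFit and eBayes, R 4.3.3) with two-sided p-values, adjusted over these probe sets by the Benjamini-Hochberg method. A gene was represented by its brightest probe set with that symbol alone, and by the study's probe set for TUBA4A. Genes and lists were chosen with earlier results of these data known. Animal values were given for members called or without overlap, TUBA4A, ACTB, and in each role the 3 smallest p and 2 widest ranges, and from pathway lists for the 2 smallest p. Further members and second probe sets were named after their values were seen. A Student's t-test on log2 values, other priors, array weights, normalisations, filters, fold minimums, covariates, the replicate block and left-out arrays were alternatives. The fit was tested on simulated data with independent noise for each probe set. Such data lack the shared order of these arrays, so nothing about the results here is read from that test. Samples were grouped by their labels. Per-probe background was not analysed here.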

Additional observations from a re-analysis of the deposited data

How the results depend on the processing

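With 3 animals per group, the counts at the study's threshold depended on the test and on single arrays. Of all probe sets, 73 met it, beside 30 with the methods' t-test, 2116 with array weights, 3070 without Sham 2 and CPB 2 together, 21 at a fold minimum of 2, and 52 to 701 with 1 array left out in turn (701 without Sham 2 and 693 without CPB 2). Of the 48 genes, 1 met it, beside 0 with the methods' t-test, the replicate block, the proximal tubule covariate, the urothelium covariate or a fold minimum of 2, 15 with array weights, 23 without Sham 2 and CPB 2, and 0 to 6 with 1 array left out. It stayed at 1 with an intensity trend, both other normalisations, without dim probe sets, with control probe sets and at a fold minimum of 1.5. Deviations of same-numbered animals had correlations of -0.39, -0.68 and -0.016, beside 0.70 for Sham 1 with CPB 2. These values follow the order of the arrays described above, so they cannot show whether same-numbered animals were handled together. No label pairs the animals. With the replicate block 76 probe sets met the threshold and TUBA4A and CAPZB had unadjusted limma p-values of 0.0701 and 0.0744. The array weights stopped short of their convergence tolerance. The proximal tubule and urothelium covariates took TUBA4A to 0.66 and 0.63 on the log2 scale, under the fold minimum. List medians changed by more than the spread between animals as follows. Without Sham 2 and CPB 2, the medians were -1.08 for tropomyosins, -0.63 for focal adhesion genes, -0.38 for nonmuscle actin and myosin, -0.59 for tubulins and -0.87 for contractile and pericyte genes together. With array weights they were -0.26 for nonmuscle actin and myosin, -0.25 for actin turnover and -0.43 for tubulins, and with the urothelium covariate 0.30 for tubulins. With 1 array left out they ran from -0.26 to 0.074 for nonmuscle actin and myosin, from -0.55 to -0.18 for ERM proteins and vimentin, and from -0.47 to 0.29 for tubulins. Within that spread, the other medians also shifted with 1 array left out, from -0.45 to 0.17 for focal adhesion genes, -0.42 to 0.024 for the calponin family and -0.17 to 0.028 for actin turnover. Of 664 values of 37 single genes under the alternatives, 614 kept their side of the threshold, 42 passed it newly and 8, all of TUBA4A, lost it. None of the called values changed direction, and the cause of these changes was not tested.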
